A study of Mus musculus with 6 samples.

Results

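The genes of vascular endothelial growth factor (VEGF) and angiopoietin signalling were examined in polyadenylated RNA from whole mouse testes: 3 ligand genes (Vegfa, Angpt1 and Angpt2), 5 receptor tyrosine kinase genes (Flt1, Kdr, Flt4, Tek and Tie1), the co-receptor gene Eng and the endothelial adhesion molecule gene Pecam1. The genes were chosen by name, and all 10 were found among the 23361 genes of the deposited table. All 10 were also among the 16658 genes with enough fragments to be tested.

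The inhibitor group was 3 mice that received daily injections of 1NaPP1-HCl dissolved in vehicle for 9 days. The control group was 3 mice injected on the same days with the vehicle alone, a 7:2:0.9 mixture of saline, cremophor and ethanol given at 10 microliters per gram of body weight. Every animal, controls included, was a C57BL/6J mouse of about 120 days and carried V805A on both copies of Ret, the kinase receptor through which GDNF, a growth factor for spermatogonial stem cells, signals. This change was used so that the compound could inhibit GDNF signalling in the living animal. Injections were followed by 5 days of recovery, and testes were taken on day 14. There were no animals that carried unsubstituted Ret and received the compound, so effects of the compound on other kinases cannot be told apart from effects through Ret.

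Blood vessels of the testis run through the interstitium between the seminiferous tubules, beside the Leydig cells. VEGF-A signals to endothelial cells through the receptor kinase KDR (VEGFR2), while FLT1 (VEGFR1) binds the same ligand tightly with weak kinase activity and, in part, as a soluble decoy. FLT4 (VEGFR3) is the receptor of the lymphangiogenic factors VEGF-C and VEGF-D. In the second system, angiopoietin-1 from perivascular cells activates the endothelial receptor TEK (TIE2) and stabilises vessels, angiopoietin-2 from the endothelium can oppose it, and TIE1 is a related receptor without a well-established ligand that modulates TEK. Endoglin, encoded by Eng, is a co-receptor for BMP9 and TGF-beta ligands on endothelium, and PECAM1 (CD31) joins endothelial cells to each other.

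The libraries held between 23144295 and 43127890 fragments. Ret RNA was at 0.487, 0.656 and 0.595 CPM (fragment counts scaled to library size) in inhibitor mice 1, 2 and 3 and at 2.28, 2.39 and 1.84 CPM in control mice 1, 2 and 3. Among all tested genes 10 were higher and 16 lower in inhibitor mice at an adjusted p below 0.05 (edgeR quasi-likelihood test, Benjamini-Hochberg), which is 0.156% of those tested. Inhibitor mouse 3 stood apart from its group: its counts differed from those of inhibitor mice 1 and 2 with chi-square values of 12.08 and 13.08 per degree of freedom, against 4.94 between mice 1 and 2 and 4.23 to 6.05 between control mice. Without that mouse the same test called 1470 genes higher and 935 lower. Where leaving it out changes which genes were called, both results are given.

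Vessel-related genes were present at low levels. All 27 endothelial identity genes in a chosen list had fragments in every library, with mean levels from 0.123 to 5.61 FPKM (fragments scaled to transcript length and library size, which allows comparison between genes) and a median of 0.574 FPKM. Genes at the upper end were Egfl7 at 5.61 FPKM, an endothelial secreted factor, and Cldn5 at 5.33 FPKM, a tight-junction protein. Cdh5, the endothelial cadherin, was at 1.92 FPKM and Emcn, an endothelial sialomucin, at 0.530 FPKM over the 6 libraries. Sox17 of the same list, also known from spermatids in mouse, was at 3.79 FPKM. Which cells of the testis gave the RNA of these genes was not tested.

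Of the 10 genes, Flt4 was the most abundant per length, and Angpt1 the least. Over the 6 libraries Flt4 ranged from 2.23 to 2.82 FPKM and lay above Eng, at 1.378 to 2.202 FPKM, in each library, without overlap of the ranges. Flt4 also exceeded 23 of the 27 endothelial identity genes in mean level. Lyve1, a hyaluronan receptor of lymphatic endothelium, was at 0.214 FPKM, and Pdpn, the membrane protein podoplanin of the same cells, at 0.734 FPKM, whereas Prox1, the transcription factor that specifies lymphatic endothelium, was at 3.35 FPKM. The other listed lymphatic genes were Ccbe1 at 3.69 FPKM, Reln at 1.12 FPKM and Mmrn1 at 0.124 FPKM. Whether the Flt4 RNA came from lymphatic vessels was not tested.

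After Flt4 and Eng came Vegfa, with a mean of 1.14 FPKM, and Pecam1, with 1.01 FPKM. Eng was above Vegfa in all 6 libraries, and Vegfa above Pecam1 in 4 of 6. Flt1 at 0.850 FPKM and Angpt2 at 0.845 FPKM could not be placed in order, with Flt1 above in 4 of 6 libraries, and their order turned when fragments were divided by the longest annotated transcript in place of the authors' scaling. Tie1 followed at 0.714 FPKM, Tek at 0.616 FPKM and Kdr at 0.311 FPKM. Tek exceeded Kdr in all libraries with no overlap of their ranges, as Kdr did Angpt1, which averaged 0.159 FPKM. Angpt1 stood above 2.40% of all tested genes and Flt4 above 33.3%.

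None of the 10 genes passed the threshold in the comparison of inhibitor with control mice (edgeR quasi-likelihood test, adjusted over all 16658 genes), against 0.156% of all genes tested. With DESeq2 and with limma none passed either, although DESeq2 gave no adjusted p for 9 of them. In inhibitor mice 7 had lower estimates and 3 higher ones, with a median log2 fold change of −0.15 beside −0.004 over all tested genes. At an unadjusted p of 0.05, 1 of the 10 was lower and 0 were higher, beside 8.48% and 9.43% of all tested genes. Groups that did not overlap were seen in 1 of the 10, which was lower, beside 22.9% of all tested genes in either direction and 11.9% lower. These shares are near the background, and in whole testis fewer vessel cells and less RNA per cell cannot be told apart.

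**Figure D1:**
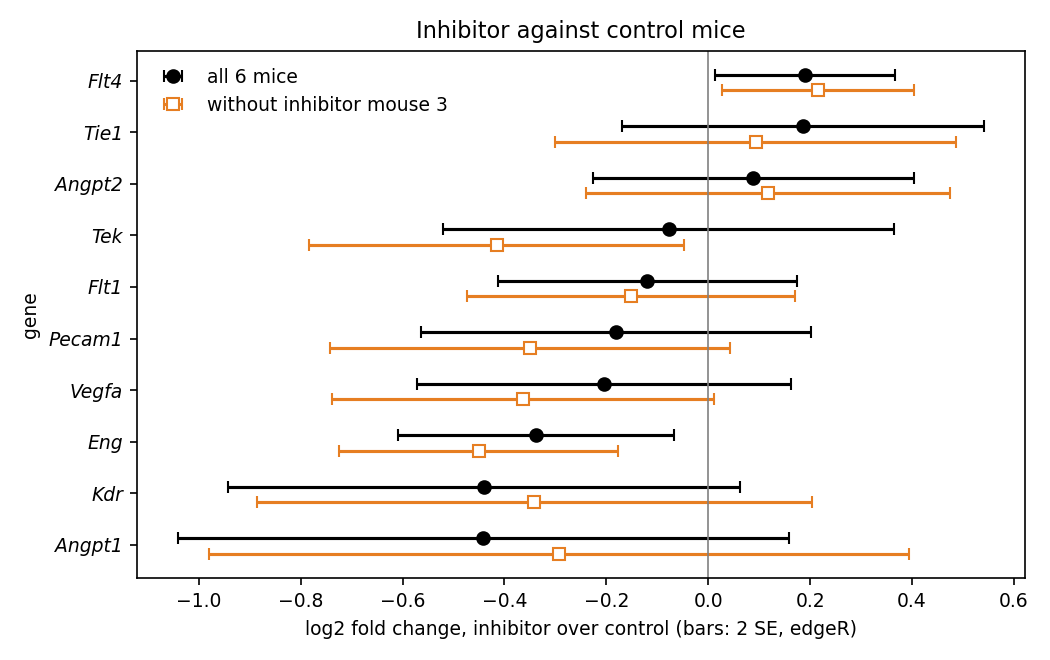
Log2 fold change of inhibitor over control mice (x axis) for each gene (y axis), with bars of 2 standard errors, from all 6 mice (filled circles) and without inhibitor mouse 3 (open squares). Estimates from all mice run from −0.44 for Angpt1 and Kdr to 0.19 for Flt4 and Tie1, and Tek moves most when that mouse is left out, to −0.42.

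Among the ligands, Vegfa (mm10, chromosome 17, 46016993 to 46032369, reverse strand) had 3.06, 2.76 and 3.92 CPM in inhibitor mice 1, 2 and 3, against 4.41, 3.85 and 3.03 CPM in control mice 1, 2 and 3. The groups overlapped, with control 1 highest and inhibitor 2 lowest. Its log2 fold change was −0.20 (SE 0.184, edgeR adjusted p = 0.597), and 2 standard errors on either side spanned −0.57 to 0.16. With single mice left out it lay between −0.36 (without inhibitor 3) and −0.09 (without control 1).

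Angpt2 (chromosome 8, 18690263 to 18741562, reverse strand) had 3.23, 2.84 and 2.87 CPM in inhibitor mice and 2.88, 3.03 and 2.48 CPM in control mice, in order of mouse number. These values overlapped throughout, and the log2 fold change was 0.09 (SE 0.158, edgeR adjusted p = 0.813). The gene lies within Mcph1 on the opposite strand, and how the counting treated strand is not given in the sources used here. Mcph1, a gene of chromosome condensation and the DNA damage response, had 14.2 ± 0.901 CPM in inhibitor mice and 14.0 ± 0.554 CPM in control mice (SD, n = 3 each).

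Angpt1 (chromosome 15, 42424723 to 42676977, reverse strand) rested on 14, 16 and 12 fragments in inhibitor mice and 19, 29 and 22 in control mice. Scaled, these were 0.487, 0.700 and 0.420 CPM in inhibitor mice, against 0.761, 0.661 and 0.748 CPM in control mice. Inhibitor mice 1 and 3 were below all controls, while inhibitor 2 lay among them. The log2 fold change of −0.44 carried a standard error of 0.300 (edgeR adjusted p = 0.472), so that 2 standard errors spanned −1.04 to 0.16. With single mice left out the estimate lay between −0.66 and −0.29. The 5′ end of Angpt1 overlaps the antisense gene Gm17473, whose reads cannot be told apart without strand.

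The co-receptor gene Eng (chromosome 2, 32646595 to 32682669, forward strand) was the gene with the smallest p. It had 5.11, 4.68 and 6.05 CPM in inhibitor mice 1, 2 and 3, against 6.57, 7.31 and 6.16 CPM in control mice 1, 2 and 3. All inhibitor mice were below all control mice, although inhibitor 3 and control 3 differed by little. The log2 fold change was −0.34 (SE 0.135) and the level 1.26-fold lower, which did not pass (edgeR adjusted p = 0.219). Without inhibitor mouse 3 it was −0.45 and passed (edgeR adjusted p = 0.041), in a comparison that called 2405 genes of all those tested. The adjusted p over all alternatives ran from 0.041 to 0.554. After correction for how transcript length and GC content shifted counts in each library, it was −0.24 (edgeR adjusted p = 0.392). The 3′ end of Eng meets Fpgs, the folylpolyglutamate synthase gene on the opposite strand, which had 22.8 ± 2.67 CPM in inhibitor mice and 22.5 ± 1.49 CPM in control mice (SD, n = 3 each).

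Of the VEGF receptors, Flt4 (chromosome 11, 49609263 to 49652739, forward strand) was the one with a higher estimate. It had 15.6, 16.2 and 15.1 CPM in inhibitor mice 1, 2 and 3 and 12.8, 13.2 and 15.1 CPM in control mice 1, 2 and 3. Control 3 reached the inhibitor range, and the groups overlapped by this mouse alone. The log2 fold change was 0.19 (SE 0.0885), short of the threshold (edgeR adjusted p = 0.287). The length and GC correction moved it to 0.35 (edgeR adjusted p = 0.157), and there and in 4 other alternatives it was higher at an unadjusted p of 0.05.

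Kdr (chromosome 5, 75932827 to 75978458, reverse strand) had 55, 24 and 35 fragments in inhibitor mice and 60, 76 and 49 in control mice. These were 1.91, 1.05 and 1.22 CPM in inhibitor mice, against 2.40, 1.73 and 1.67 CPM in control mice. Inhibitor mice 2 and 3 were below every control, and inhibitor 1 was above controls 2 and 3. The log2 fold change was −0.44 (SE 0.251, edgeR adjusted p = 0.383), and leaving out single mice moved it between −0.74 and −0.27. That range is the widest in log2 units among the VEGF receptors.

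Flt1 (chromosome 5, 147561604 to 147726011, reverse strand) had 4.55, 5.29 and 5.25 CPM in inhibitor mice and 6.25, 4.60 and 5.65 CPM in control mice. Its groups overlapped, and the log2 difference was −0.12 (SE 0.147, edgeR adjusted p = 0.711). The table gives 1 value per gene, so the membrane-bound and soluble forms of Flt1 were not separated. The 3 VEGF receptors therefore had estimates in both directions. An interval of 2 standard errors included 0 for Flt1 and Kdr but not for Flt4. Even so, the edgeR p of Flt4 was 0.053 before adjustment and 0.287 after it.

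Tek (chromosome 4, 94739289 to 94874976, forward strand) had 2.12, 2.19 and 3.81 CPM in inhibitor mice and 3.12, 2.83 and 2.69 CPM in control mice. Inhibitor 3 held the highest value and inhibitor mice 1 and 2 the lowest ones. With all mice the log2 fold change was −0.08 (SE 0.221, edgeR adjusted p = 0.893). Without inhibitor 3 it was −0.42 (edgeR adjusted p = 0.152), and without inhibitor 1 or inhibitor 2 the estimate turned to 0.08 or 0.05.

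Tie1 (chromosome 4, 118471191 to 118490061, reverse strand) had 2.40, 2.97 and 3.18 CPM in inhibitor mice and 2.64, 2.73 and 2.11 CPM in control mice. The groups overlapped, and the log2 fold change was 0.19 (SE 0.178, edgeR adjusted p = 0.619), or 0.09 without inhibitor 3 and 0.30 without inhibitor 1. Pecam1 (chromosome 11, 106654217 to 106750628, reverse strand) had 2.99, 2.32 and 3.64 CPM in inhibitor mice, against 3.40, 3.92 and 2.82 CPM in control mice. Here too the groups overlapped (log2 fold change −0.18, SE 0.192, edgeR adjusted p = 0.658). Without inhibitor mouse 3 Pecam1 was at −0.35 (edgeR adjusted p = 0.262).

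The sequence just upstream of the annotated start is shown for Eng, Flt1 and Tek, receptors of endothelial cells whose windows overlapped no annotated exon, to let the regulatory letters of these genes be compared. ETS factors such as ERG and FLI1, which bind the core GGAA, are known regulators of endothelial genes. The 150 bases are from the RefSeq promoter table (GRCm38.p6), 5′ to 3′ on the strand of the gene, with GGAA and its reverse complement TTCC in capitals.
Eng, chr2:32646445-32646594, forward strand: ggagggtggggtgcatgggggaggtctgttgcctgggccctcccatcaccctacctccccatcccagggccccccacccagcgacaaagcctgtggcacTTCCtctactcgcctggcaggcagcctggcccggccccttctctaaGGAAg
Flt1, chr5:147726012-147726161, reverse strand: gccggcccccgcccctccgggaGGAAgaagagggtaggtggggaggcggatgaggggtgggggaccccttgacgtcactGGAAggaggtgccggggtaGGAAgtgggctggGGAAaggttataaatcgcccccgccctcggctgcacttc
Tek, chr4:94739139-94739288, forward strand: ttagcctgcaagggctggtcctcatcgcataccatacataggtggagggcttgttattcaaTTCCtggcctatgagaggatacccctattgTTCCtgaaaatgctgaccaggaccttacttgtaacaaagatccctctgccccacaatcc

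Flt1 held 4 matches to the ETS core on either strand, and Eng and Tek 2 each. Of the 32851 promoters tabulated, 80.8% held at least 1 match in a window of the same length, with a median of 2. The core of the hypoxia-inducible factor site, ACGTG or its reverse complement CACGT, was in none of the 3 windows and in 11.2% of all promoters. The core GGGCGG of the SP1 site, or its reverse complement CCGCCC, had 2 matches in Flt1 and 0 in Eng and Tek, and 28.6% of all promoters held it. RefSeq promoters were found for 7 of the 10 genes. The windows of Kdr, Flt4 and Tie1 overlapped annotated exons and are not printed, nor is Vegfa, which had 2 entries.

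Ratios between pairs of these genes within a library compare ligands and receptors free of library scaling. Angpt2 exceeded Angpt1 by 7.66, 4.69 and 7.88 times in inhibitor mice 1, 2 and 3, against 4.37, 5.29 and 3.83 times in control mice 1, 2 and 3 (ratios of FPKM). Inhibitor 2 lay among the controls, and the difference of log2 ratios was 0.56 (exact two-sided permutation test p = 0.2, or 0.45 adjusted over 6 ratios). Flt4 over Kdr was 7.62, 14.4 and 11.5 in inhibitor mice and 4.95, 7.09 and 8.46 in control mice, with a log2 difference of 0.69 (exact p = 0.2, adjusted 0.45). Here inhibitor 1 was below control 3.

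Flt1, whose membrane-bound and soluble forms were not separated, exceeded Kdr in every library. The ratio of their FPKM was 2.06, 4.35 and 3.70 in inhibitor mice and 2.25, 2.30 and 2.93 in control mice. Inhibitor mice thus held both the lowest and the highest value (log2 difference 0.38, exact p = 0.4). Vegfa over Kdr was 2.77, 4.47 and 5.62 in inhibitor mice, against 3.11, 3.92 and 3.20 in control mice (log2 difference 0.28, exact p = 0.5).

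Tie1 and Tek were nearly balanced, with FPKM ratios of 1.37, 1.65 and 1.01 in inhibitor mice and 1.02, 1.17 and 0.950 in control mice (log2 difference 0.33, exact p = 0.3). Eng over Pecam1 was 1.61, 1.88 and 1.58 in inhibitor mice and 1.84, 1.77 and 2.09 in control mice (log2 difference −0.17, exact p = 0.3). All 6 ratios overlapped between the groups, and 3 against 3 mice cannot give a p below 0.1. Single mice moved these differences. Vegfa over Kdr was at 0.05 without inhibitor 3 and 0.56 without inhibitor 1, and Flt1 over Kdr at 0.16 without inhibitor 2 and 0.70 without inhibitor 1. Tie1 over Tek ran from 0.17 to 0.52, Angpt2 over Angpt1 from 0.43 to 0.80, Flt4 over Kdr from 0.48 to 0.94, and Eng over Pecam1 from −0.25 to −0.10.

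**Figure D2:**
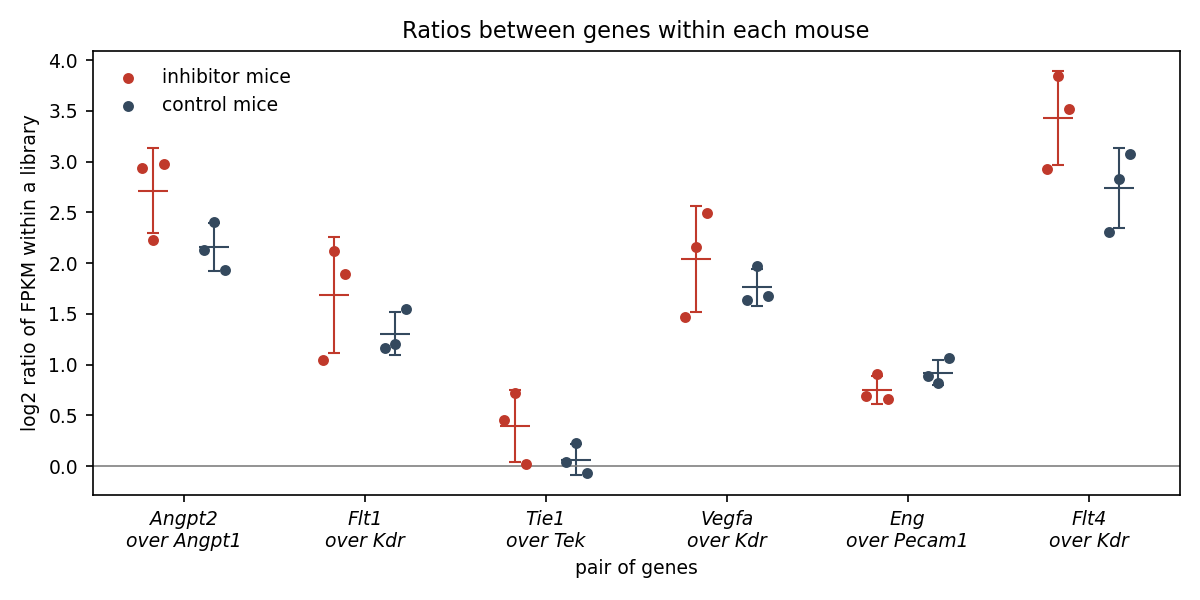
Log2 ratio of FPKM (y axis) for 6 pairs of genes (x axis) in each mouse, inhibitor mice left and control mice right, with group means and SD. The inhibitor mice spread more widely than the control mice in each pair, and the groups overlap in all of them.

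Set beside the mean log2 CPM of the 26 tested endothelial identity genes of the same library, Eng was again lower in inhibitor mice. Its log2 CPM stood 1.32, 1.21 and 1.35 above that mean in inhibitor mice 1, 2 and 3, against 1.54, 1.63 and 1.67 in control mice. The difference was −0.32 without overlap (exact two-sided permutation test p = 0.1, the smallest value this design allows, and 0.5 adjusted over the 10 genes). Against Pecam1 and Cdh5 alone it was −0.21. Tie1 stood 0.251, 0.564 and 0.432 above the endothelial mean in inhibitor mice and 0.249, 0.230 and 0.152 in control mice, a difference of 0.21 that also showed no overlap (exact p = 0.1, adjusted 0.5). Inhibitor 1 and control 1 of Tie1 were almost equal, and in CPM without this reference the groups of Tie1 overlapped. The share of all tested genes without overlap on this measure was not computed. In log2 CPM without the reference it was 22.9% in either direction. The other 8 genes overlapped, Kdr with the lowest difference (−0.46) and Flt4 with 0.21. The endothelial mean itself was 1.12 ± 0.129 in inhibitor mice and 1.14 ± 0.150 in control mice (log2 CPM, SD, n = 3 each).

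**Figure D3:**
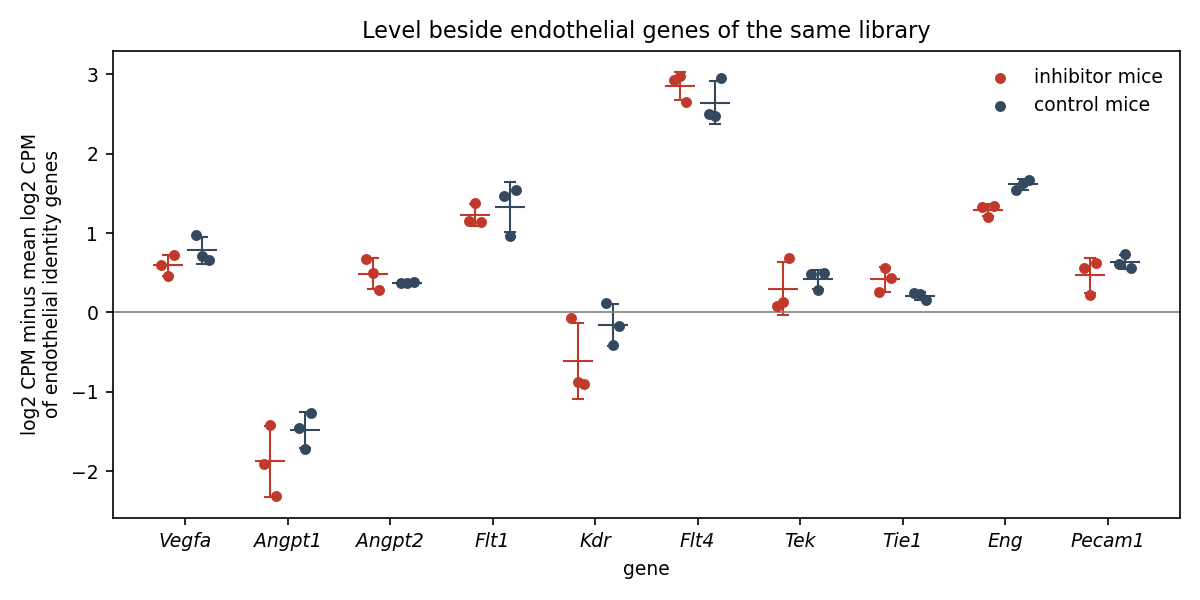
Log2 CPM of each gene minus the mean log2 CPM of 26 endothelial identity genes in the same library (y axis), for the 10 genes (x axis), with inhibitor mice left and control mice right, group means and SD. Eng is lower and Tie1 higher in inhibitor mice without overlap, by −0.32 and 0.21. In log2 CPM without this reference, 22.9% of all tested genes do not overlap.

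Other genes of these pathways were taken from 10 vascular lists, chosen with earlier results of these data known, with 119 tested genes in all, among them those of the 10 genes that the lists hold. In the edgeR test 0 of the 119 passed, while at an unadjusted p of 0.05, 10 were lower and 5 higher. The lower ones are 8.40% of the 119, beside 8.48% of all tested genes, and the 5 higher ones stand beside 9.43% of all tested genes. DESeq2 called 2 of them, Foxo1 and Slc2a1, both lower, which is 1.68% of the 119. Over all 23361 genes it called 374 higher and 158 lower. It gave no adjusted p for 78 of the 119, and limma called none of them. Without inhibitor mouse 3 edgeR called 8: Eng, Epas1, Erg, Foxo1, Nck1, Pxn, Slc2a1 and Vhl. That is 6.72% of the 119, beside 14.3% of all genes tested without that mouse. Among the 5 VEGF ligand genes 3 had lower and 2 higher estimates, with the median at −0.14, or at 0.18 without control mouse 2. Pgf, the placental growth factor that binds FLT1, had 5.06 ± 1.05 CPM in inhibitor mice and 3.32 ± 0.450 CPM in control mice without overlap (SD, n = 3 each; log2 fold change 0.60, SE 0.175, edgeR adjusted p = 0.123). Vegfb, another FLT1 ligand, stood at −0.26 (edgeR adjusted p = 0.357). Vegfc and Figf (VEGF-D), the ligands of FLT4, were at 0.07 and −0.14 on the log2 scale, with adjusted p of 0.959 and 0.897 in edgeR. The VEGF co-receptor genes Nrp1 and Nrp2 had log2 fold changes of −0.15 and 0.10.

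In the angiopoietin and Tie list 5 of 9 tested genes had lower estimates (median log2 fold change −0.08, turning above 0 without control mouse 2 or inhibitor mouse 2). Ptprb, the endothelial phosphatase VE-PTP that acts on TEK, had 9.95 ± 1.39 CPM in inhibitor mice and 12.9 ± 0.533 CPM in control mice (SD, n = 3 each), with no overlap (log2 fold change −0.38, SE 0.107, edgeR adjusted p = 0.115). Foxo1, a transcription factor restrained by TEK signalling in endothelium, stood at −0.48 (edgeR adjusted p = 0.081). Foxo1 is also expressed in undifferentiated spermatogonia and is itself among the listed markers of those cells. With Foxo1 counted, 9 of the 10 tested markers had lower estimates. Of these, 4 passed the threshold (Ret, Sox3, Zbtb16 and Lin28a), beside 0.156% of all tested genes. The number past the threshold was 6 without inhibitor mouse 3, where 14.3% of all tested genes passed. It was 1 without control mouse 3 and in DESeq2, and 0 with limma and without any of the other 4 mice. The summed level of all 11 markers, Foxo1 included, was 52.8 to 58.9 CPM in inhibitor mice and 75.6 to 79.0 CPM in control mice. The part of these spermatogonia in the Foxo1 value was not tested.

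The endoglin and BMP9 list had lower estimates in 12 of 14 tested genes, with a median log2 fold change of −0.13 beside −0.004 over all genes. Over all tested genes 51.0% had lower estimates. Smad6, an inhibitory SMAD, had 15.3 ± 1.74 CPM in inhibitor mice and 19.0 ± 1.53 CPM in control mice (log2 fold change −0.32, edgeR adjusted p = 0.130; SD, n = 3 each). Bmpr2, the type II receptor that pairs with endoglin's partner ACVRL1, had 5.80 ± 0.177 CPM in inhibitor mice and 7.36 ± 0.892 CPM in control mice (log2 fold change −0.34, edgeR adjusted p = 0.187). At an unadjusted p of 0.05, 4 of the 14 were lower, Eng among them, beside 8.48% of all tested genes. This number ran from 2 to 7 with single mice left out, was 2 with the length and GC correction and 1 with the replicate block added to it, and many of these genes are active in other testicular cells too. The list summed to 124 to 136 CPM in inhibitor mice and 140 to 144 CPM in control mice. The sums of the angiopoietin and Tie, tip cell and Notch, and lymphatic lists were also lower in inhibitor mice without overlap. Those of the other vascular lists overlapped. Without control mouse 2, 10 of 14 endoglin and BMP9 genes had lower estimates, with a median of −0.12. Without inhibitor mouse 3, 12 of 14 had lower estimates, with a median of −0.22. At an unadjusted p of 0.05, 7 of the 14 were then lower, beside 2264 of all 16871 genes tested without that mouse.

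Tip cell and endothelial Notch genes had lower estimates in 10 of 13, with a median of −0.24 on the log2 scale, or −0.15 after the length and GC correction. With single mice left out, 8 to 12 of 13 were lower, with medians from −0.237 to −0.125. Under the filter of at least 50 counts in 3 libraries, 6 of 9 were lower, with a median of −0.06. At an unadjusted p of 0.05, 1 of the 13 was lower, beside 8.48% of all tested genes. Notch1, the receptor that restrains sprouting, had 6.05 ± 1.11 CPM in inhibitor mice and 8.38 ± 0.468 CPM in control mice (SD, n = 3 each; log2 fold change −0.46, edgeR adjusted p = 0.123). Efnb2, the ephrin of arterial endothelium, stood at −0.17. Genes of VEGF signal transduction were at a median of −0.05 with lower estimates in 13 of 19, or in 9 of 19 after that correction and without control mouse 2. Nck1, an adaptor protein, was at 0.23 and Ppp3ca, a calcineurin subunit, at 0.16, with edgeR adjusted p of 0.119 and 0.142.

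Endothelial identity genes were near the background, with lower estimates in 14 of 26 (median log2 fold change −0.04). Erg, the ETS factor of endothelium, had 0.899 ± 0.196 CPM in inhibitor mice and 1.45 ± 0.0996 CPM in control mice (SD, n = 3 each), the smallest p of the list at an edgeR adjusted p of 0.162. Sox17, an arterial transcription factor also known from spermatids in mouse, was at 0.32 (edgeR adjusted p = 0.242). Without inhibitor mouse 3, 17 of 26 had lower estimates (median −0.15), and without control mouse 2, 12 of 26 (median 0.04). Mural cell genes had lower estimates in 7 of 10 (median −0.19; Anpep −0.39, Mcam −0.26), in 10 of 10 without inhibitor mouse 3 and in 2 of 10 without control mouse 2 (median 0.05). After the length and GC correction the median was −0.07. Lymphatic genes had lower estimates in 4 of 6 (Reln −0.21, Ccbe1 −0.12), in 2 of 6 without control mouse 1 and in 6 of 6 without inhibitor mouse 1.

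**Figure D4:**
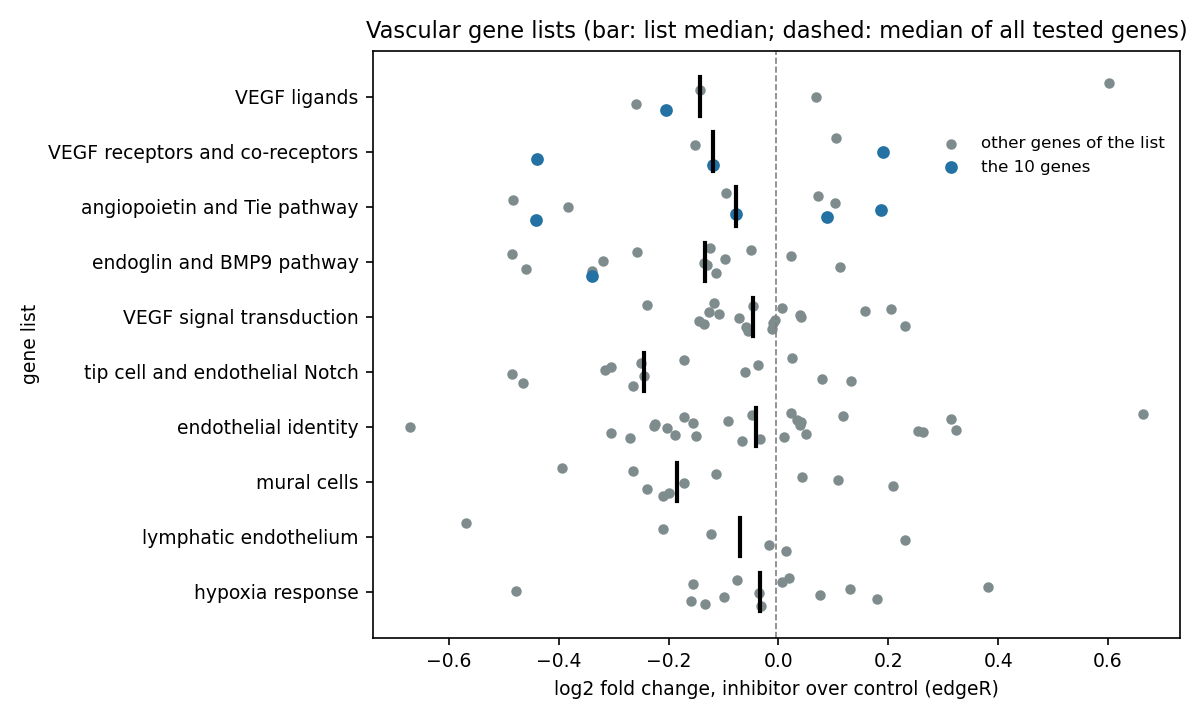
Log2 fold change of inhibitor over control mice (x axis) for every tested gene of 10 vascular lists (y axis). Blue points are the 10 VEGF and angiopoietin genes examined, grey points the other genes, black bars the list medians and the dashed line the median of all tested genes. Medians run from −0.24 for tip cell and Notch genes to −0.03 for hypoxia genes.

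The hypoxia list held genes of hypoxia-inducible factors and their regulators, as well as genes that these factors control, as they do Vegfa. Lower estimates were found in 8 of its 14 tested genes (median −0.03, or −0.10 without inhibitor mouse 3). Slc2a1, the glucose transporter GLUT1, had 7.83 ± 1.23 CPM in inhibitor mice and 10.9 ± 0.940 CPM in control mice without overlap (SD, n = 3 each; log2 fold change −0.48, edgeR adjusted p = 0.103). Vhl, which marks hypoxia-inducible factors for destruction, was at 0.18 (edgeR adjusted p = 0.189).

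Markers of other cells in the testis were measured in the same libraries. Macrophage genes summed to 446 to 478 CPM in inhibitor mice and 398 to 416 CPM in control mice, led by Aif1 (log2 fold change 0.20) and Lyz2 (0.32), while 7 of the 10 had lower estimates, or 1 of the 10 without control mouse 2. Genes of spermatocytes and spermatids summed to 21025 to 23145 CPM in inhibitor mice, against 19537 to 20402 CPM in control mice, with higher estimates in 10 of 11 (Akap4 0.17, Prm2 0.16), while 4 of 11 had lower ones after the length and GC correction. Peritubular myoid genes had lower estimates in 8 of 9, or in 5 of 9 without control mouse 2 (Mylk −0.22, Cnn1 −0.46), and their sums overlapped, as did those of Leydig cells (7 of 10 with lower estimates, or 4 of 10 without inhibitor mouse 1; Nr5a1 −0.17, Insl3 −0.22) and Sertoli cells (9 of 12 with lower estimates; Cst9 0.23, Cst12 0.27). With all mice edgeR called no gene of these 5 lists. DESeq2 called 3 spermatocyte and spermatid, 2 Sertoli and 1 macrophage gene higher, beside 374 higher and 158 lower over all genes. Without inhibitor mouse 3 edgeR called 1470 genes higher and 935 lower, which is 14.3% of all genes tested without that mouse. Of these lists it then called 8 spermatocyte and spermatid, 3 macrophage and 2 Sertoli genes higher. It called 3 Sertoli, 1 Leydig and 1 myoid gene lower. The part of these cells in the values of Eng, Flt4 or Kdr was not tested. Erythroid genes of the table summed to 17.7 to 22.9 CPM in inhibitor mice and 18.2 to 21.7 CPM in control mice, most of it Alas2 (log2 fold change 0.06). Hba-a1 had a log2 fold change of −0.05, and Hbb-b1 was listed with 0 fragments in all libraries. Epididymal genes, a sign of neighbouring tissue, summed to 2.34 CPM in inhibitor mouse 3, against 5.79 to 7.70 CPM in the other libraries, with log2 fold changes of −0.09 for Ros1 and 0.41 for Spink8, and Lcn5 was listed with 0 fragments in all libraries.

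The mean profile of Flt1, Kdr, Flt4, Tek, Tie1, Eng and Pecam1 over the 6 libraries was most closely matched by App, with a root mean square difference of 0.021 in centred log2 CPM, among 12127 genes whose mean log2 CPM was 2 or more. Atxn1 (0.026), Wwc2 (0.030), Paxip1 (0.030) and Daam2 (0.030) followed. The profile was at −0.09, −0.19 and 0.09 in inhibitor mice 1, 2 and 3 and at 0.15, 0.07 and −0.03 in control mice 1, 2 and 3, so that it overlapped between the groups. With so many candidates and 6 libraries, close matches are a description of these libraries.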

How the data were processed

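Whole-testis RNA of 6 mice was sequenced, as single-end reads of 81 nt from directional polyadenylated libraries made from 500 ng of total RNA, per the labels' protocols. Reads were processed with Cuffdiff 2.2.1, TopHat2 2.0.13 and cutadapt 1.8 against mm10, per the submitters' processing notes; which step each tool did, the annotation and the strand setting are not given in those notes. The deposited table holds expected counts of fragments (98.8% whole within 1e-06), which were rounded here, and FPKM values scaled by the authors. Each library is a separate mouse per the labels. Values of the 10 genes rested on 12 to 579 fragments per library.

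All genes were tested together with edgeR 4.0.16 in R 4.3.3 (filterByExpr, TMM, robust quasi-likelihood F-test, two-sided, Benjamini-Hochberg at 0.05), inhibitor over control. FPKM gave levels and ratios, and log2 CPM (prior count 2) the values beside endothelial genes, with exact permutation tests over mice. Gene positions, lengths and GC content came from GENCODE M21 (GRCm38, the same assembly as mm10), with a length for 93.3% of tested genes. Same-numbered mice are not stated to be paired, so no block was used. Alternatives were other scalings, filters and tests (DESeq2 1.42.0, limma 3.58.1), a length and GC correction (loess, span 0.5), a mouse block and leaving out each mouse.

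The genes and lists were chosen with earlier results of these data known. Named genes were the 10 genes, Ret, genes past the threshold and the 2 smallest p of each list, and the 5 most alike profiles. Egfl7, Cldn5, Cdh5, Emcn, Lyve1, Pdpn, Prox1, Mmrn1, Vegfc, Figf, Mcph1, Gm17473, Fpgs, Hbb-b1 and Lcn5 were named after their values were seen. On data simulated for these 16658 genes with 200 changed, 78% of 1.5-fold and 100% of 3-fold changes were recovered, with 6 false among 184 calls. The changed genes were all above a mean of 2 CPM, which Angpt1 (0.629 CPM) and Kdr (1.66 CPM) did not reach. No simulated mouse stood apart as inhibitor mouse 3 did, so these shares do not give the power for the 10 genes.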

Additional observations from a re-analysis of the deposited data

How the results depend on the processing

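The direction of 9 of the 10 fold changes was the same under every alternative tried, while Tek turned without inhibitor 1 or inhibitor 2 and lay between −0.42 and 0.079 when single mice were left out. None of the 10 genes passed under any alternative except Eng without inhibitor 3, so with single mice left out 0 to 1 passed, and Eng ranged from −0.45 to −0.26. The number lower at an unadjusted p of 0.05 was 0 to 2 with single mice left out, 0 with the length and GC correction, alone or with the replicate block, and 2 (Eng and Kdr) with the replicate block alone; the cause was not tested. Flt4 was higher at that p in 5 alternatives: other size factors (RLE), the length and GC correction with and without the block, and without control 3 or inhibitor 3. Eng beside Pecam1 and Cdh5 alone differed by −0.206. Per kilobase of the longest transcript, Flt1 ranked number 6 and Angpt2 number 5 in level.

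Counts over all genes depended on the setting. With single mice left out, 0 to 1470 genes were called higher and 0 to 935 lower. DESeq2 called 374 higher and 158 lower, and edgeR without a filter 58 and 57, with at least 50 counts in 3 libraries 3 and 7. Library totals alone gave 4 higher and 23 lower genes. limma-voom gave 0 higher and 2 lower, limma on log2(FPKM + 1) 0 and 0 (1617 and 1171 at an unadjusted p of 0.05), and on log2(FPKM + 0.1) 0 and 1. With mouse number as a replicate block, edgeR called 0 higher and 5 lower, and with the length and GC correction added 0 and 2. Same-numbered mice did not deviate together (correlations of 0.062, −0.116 and −0.020), and only inhibitor 1 correlated best with its own number. With so few mice these values cannot show whether same-numbered mice were handled together, which the labels do not state. Values of the gene lists with single mice left out were added after seeing the data. Angpt1 and Kdr, with the fewest fragments, had the widest standard errors, and with 3 mice a group the exact tests cannot reach 0.05.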
